A study of Mus musculus with 6 samples.

Results

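The cholinergic neuron genes are 7 genes whose products make, load, recapture and break down acetylcholine or mark the neurons that use it. They were taken by symbol from the deposited tables, and all 7 of 7 were found among the 27378 genes listed in each library. Whole brains were taken for RNA sequencing from male mice of the inbred C57BL/6J strain, wild type in both groups. Mice of the PS group received polystyrene nanoplastics through the nose for 28 days. Control mice received sterile distilled water by that route for 28 days. Each group held 3 libraries, and the sources used here give no age, particle size or dose. The labels number the samples without saying that each came from its own animal, so every p-value below reflects how these samples vary, and that variation may be technical.

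Cholinergic neurons make acetylcholine in the cytoplasm, pump it into synaptic vesicles, and take choline back up after the transmitter has been split in the synaptic cleft. In brain they sit in the basal forebrain, in the striatum as interneurons, in the medial habenula, and in brainstem nuclei that include the cranial motor neurons. Motor neurons are lost in amyotrophic lateral sclerosis, which the title of the series names. Of the cholinergic motor neurons, whole brain holds only those of the brainstem. In bulk tissue, fewer cells of a type and less RNA per cell cannot be told apart.

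The libraries held 39239183 to 40335590 reads behind the deposited values. Markers of neurons, astrocytes, oligodendrocytes, microglia and endothelium were all present, with all 8 neuronal markers tested. On the leading principal component (42.3% of the variance) control replicate 2 lay at 17.5 and the other 5 libraries between -8.2 and 2.9. It was the lowest library for 30.0% of the 12229 genes tested, so results are given with and without it where that matters. Levels are in FPKM, fragments scaled to gene length and library size. This allows levels of different genes to be compared per length where the length used fits the reads counted. Differences are log2 fold changes, PS over control, of log2(FPKM + 1), a scale that understates the change of low genes.

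Chat and Slc18a3 form the cholinergic gene locus, in which Slc18a3 lies inside the span of Chat on the same strand of chromosome 14. The annotation used here shares 0 exon bases between them, and the length behind the deposited Slc18a3 values was 2414 bases, close to its whole annotated exon length of 2413. How the authors' counting treated introns is not stated, so reads from unspliced Chat RNA over Slc18a3 cannot be told apart from Slc18a3 RNA. The 250 bases before the annotated start of Slc18a3 and of Slc5a7 are shown because both members were lowest in the same library, and because neither window overlaps an exon of a member. They come from RefSeq, build GRCm38.p6, which is not the GRCm39 build of the deposited tables. The Slc18a3 window is chr14:32464851-32465100 on the minus strand and the Slc5a7 window chr17:54299035-54299284 on the minus strand, each printed 5′ to 3′ along the gene. Capitals mark the letters GGGCGG (a GC box), TGACG (the core of the cyclic AMP response element), CACGTG (an E-box) and TATAAA on either strand.
Slc18a3: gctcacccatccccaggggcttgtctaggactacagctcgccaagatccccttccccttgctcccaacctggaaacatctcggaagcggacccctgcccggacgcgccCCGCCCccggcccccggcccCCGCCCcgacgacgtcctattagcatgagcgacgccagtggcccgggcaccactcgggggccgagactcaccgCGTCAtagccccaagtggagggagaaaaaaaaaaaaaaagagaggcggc
Slc5a7: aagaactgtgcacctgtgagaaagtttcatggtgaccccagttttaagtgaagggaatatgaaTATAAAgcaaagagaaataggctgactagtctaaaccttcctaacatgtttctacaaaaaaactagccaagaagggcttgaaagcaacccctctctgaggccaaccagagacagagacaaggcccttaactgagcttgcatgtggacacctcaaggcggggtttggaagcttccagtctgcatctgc

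The Slc18a3 window held 66.0% G and C and the Slc5a7 window 45.6%, against a median of 52.4% over 32851 windows of the same length. GGGCGG occurred in 32.7% of all windows, and among the members it occurred 2 times before Slc18a3, 4 times before Ache and 4 times before Slc10a4. Some of the matches before Ache and Slc10a4 overlap each other. CACGTG, found in 6.0% of all windows, occurred before Chat and Ache. TGACG, found in 17.8%, occurred before Chat, Slc18a3 and Isl1, and TATAAA, found in 12.4%, before Slc5a7. TAATTA, a core that many homeodomain proteins bind, was in 4.8% of all windows and in 0 of the 7. These are matches of letters and describe no binding.

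Ache was the most abundant of the 7 per length, at a mean of 20.5 FPKM over the 6 libraries. It was followed by Slc10a4 at 3.48, Slc5a7 at 2.84, Slc18a3 at 2.26, Chat at 2.11, Isl1 at 1.13 and Lhx8 at 0.653. The order from Ache to Slc10a4 to Slc5a7 to Slc18a3 held in 6 of 6 libraries, and so did Chat over Isl1 and Isl1 over Lhx8. Slc18a3 exceeded Chat in only 4 of 6 libraries, so these neighbours did not differ beyond their spread. The library ranges overlapped for every pair of neighbours but Ache over Slc10a4 and Chat over Isl1. The lengths behind the values of Chat (2810 bases) and Isl1 (2526) fell short of their annotated exon lengths here, 4703 and 3959. Those of the other members were close to the annotated ones. If reads over all annotated exons were counted, the levels of Chat and Isl1 are too high per length. Their places in the order, and the ratios to them below, depend on this.

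**Figure D1:**
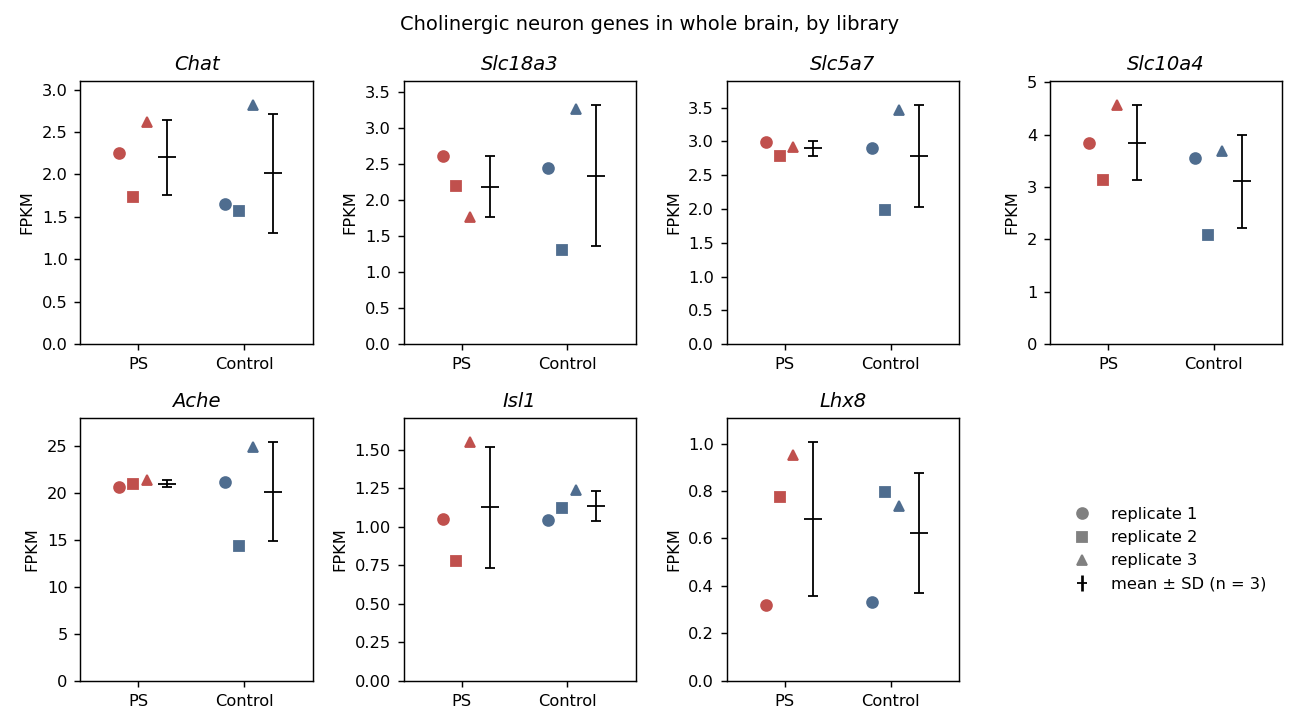
FPKM (y axis, from 0) of the 7 genes in each PS library (red, left) and control library (blue, right), with marker shapes for replicates 1, 2 and 3 and a black bar for the mean ± SD of n = 3. The PS and control values overlap for every gene, and Ache spans 20.6 to 21.3 in PS and 14.4 to 24.8 in control libraries.

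Chat encodes choline acetyltransferase, the enzyme that makes acetylcholine and defines a cholinergic neuron. It stood at 2.26, 1.73 and 2.615 FPKM in PS replicates 1, 2 and 3 and at 1.65, 1.57 and 2.82 in control replicates 1, 2 and 3. The highest and the lowest value were both in control libraries, so the groups overlapped. Chat averaged 2.20 ± 0.446 FPKM in PS and 2.01 ± 0.700 in control brains (SD, n = 3 each), with a log2 fold change of 0.10 (SE 0.161, 95% interval from -0.26 to 0.47, limma adjusted p = 0.981). Without control replicate 3 the log2 fold change was 0.29 (limma adjusted p = 0.341), and without control replicate 2 it was -0.0008 (limma adjusted p = 0.999).

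Slc18a3 encodes the vesicular acetylcholine transporter, which fills synaptic vesicles. Its values were 2.61, 2.19 and 1.76 FPKM in PS and 2.44, 1.31 and 3.26 FPKM in control replicates 1, 2 and 3. The control libraries again held both extremes, a 2.49-fold span. Slc18a3 averaged 2.19 ± 0.424 FPKM in PS and 2.34 ± 0.980 in control (SD, n = 3 each), with a log2 fold change of -0.03 (SE 0.2, 95% interval from -0.48 to 0.42, limma adjusted p = 0.996). The sign changed on leaving out PS replicate 3 (0.07), control replicate 1 (0.01) or control replicate 3 (0.17), and it was -0.27 without control replicate 2.

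Slc5a7 encodes the high-affinity choline transporter, which returns choline to the terminal and limits synthesis. It was at 2.99, 2.78 and 2.92 FPKM in PS and 2.905, 1.98 and 3.47 in control replicates 1, 2 and 3. The PS libraries were close together while the control libraries spread on both sides of them. The means were 2.90 ± 0.110 FPKM in PS and 2.785 ± 0.754 in control (SD, n = 3 each), with a log2 fold change of 0.06 (SE 0.133, 95% interval from -0.24 to 0.36, limma adjusted p = 0.991). Without control replicate 2 it was -0.10.

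Slc10a4 encodes an orphan vesicular transporter of cholinergic and monoamine neurons. It was at 3.85, 3.14 and 4.57 FPKM in PS and 3.55, 2.09 and 3.69 in control replicates 1, 2 and 3. PS replicates 1 and 3 lay above all control libraries and PS replicate 2 lay below 2 of them. Slc10a4 had the largest log2 fold change of the 7, at 0.25 (SE 0.166, 95% interval from -0.12 to 0.63, limma adjusted p = 0.937), with means of 3.85 ± 0.714 FPKM in PS and 3.11 ± 0.887 in control (SD, n = 3 each). With the replicate number as a block its unadjusted p was 0.0136 and its adjusted p 0.430, and without control replicate 2 the log2 fold change was 0.06. Of the other lists, the 9 monoamine neuron markers summed to 33.1 to 43.0 FPKM in PS and 23.8 to 52.9 in control libraries, lowest in control replicate 2 as Slc10a4 was. Their part in the Slc10a4 values was not tested.

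Ache encodes acetylcholinesterase, which splits the transmitter in the cleft and is also made outside cholinergic neurons. It was at 20.6, 20.9 and 21.3 FPKM in PS replicates 1, 2 and 3, a coefficient of variation of 1.7%. That is about as small as the mean counting error of its 2546 to 4441 reads per library, also 1.7% after rounding. In control replicates 1, 2 and 3 it was at 21.2, 14.4 and 24.8 FPKM, a coefficient of variation of 26.4%. The difference in spread between the groups was not tested. The means, 20.95 ± 0.351 FPKM in PS and 20.1 ± 5.30 in control (SD, n = 3 each), gave a log2 fold change of 0.09 (SE 0.158, 95% interval from -0.27 to 0.45, limma adjusted p = 0.984). Without control replicate 2 it was -0.12 (limma adjusted p = 0.859), and without control replicate 3 it was 0.25 (limma adjusted p = 0.445). The enzyme also sits on red cells, whose 5 marker genes summed to 56.7 to 99.5 FPKM in PS and 127 to 196 in control libraries, with no overlap. By limma 0 of these 5 genes were called in the fit without the block (lowest adjusted p = 0.0626) and 4 with the replicate block (lowest adjusted p = 0.0155). Over all 12229 genes tested, 20 were called without the block and 48 with it, and 11.3% separated the groups without overlap. Their part in the Ache values was not tested. Ache shares 98 exon bases with a noncoding gene on the opposite strand in the annotation used here, and whether reads were counted by strand is not stated.

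Isl1 encodes a LIM homeodomain transcription factor of motor neurons and striatal cholinergic interneurons, which also marks arcuate hypothalamic and other neurons. It was at 1.048, 0.775 and 1.55 FPKM in PS and 1.047, 1.12 and 1.24 in control replicates 1, 2 and 3. Here the PS libraries held both extremes, and control replicate 2 was not low. The means were 1.13 ± 0.395 FPKM in PS and 1.14 ± 0.0966 in control (SD, n = 3 each), with a log2 fold change of -0.02 (SE 0.127, 95% interval from -0.31 to 0.26, limma adjusted p = 0.996). The sign changed on leaving out PS replicate 2 (0.10), or control replicate 3 (0.01), and with sample weights (0.04).

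Lhx8 encodes a LIM homeodomain factor required for basal forebrain and striatal cholinergic neurons. It was at 0.3204, 0.775 and 0.9515 FPKM in PS replicates 1, 2 and 3 and at 0.333, 0.797 and 0.738 in control replicates 1, 2 and 3. Replicate 1 of both groups was low, at 32 reads in PS (exact Poisson 95% interval from 21.9 to 45.2) and 33 in control (22.7 to 46.3), and the other 4 libraries held 73 to 95 reads. These intervals cover counting error only. With a mean under 1 FPKM, Lhx8 was tested in a second limma fit over 16542 genes with a mean of at least 0.1 FPKM, on log2(FPKM + 0.1). The means were 0.682 ± 0.326 FPKM in PS and 0.623 ± 0.252 in control (SD, n = 3 each), with a log2 fold change of 0.08 (SE 0.383, 95% interval from -0.79 to 0.95, limma adjusted p = 0.996). Without PS replicate 1 it was 0.48, and without control replicate 1 it was -0.25.

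None of the 7 genes passed an adjusted p under 0.05 by limma on FPKM or by limma-voom on reads recovered from the FPKM values, and 0 had an unadjusted p under 0.05 in the main fits. The background was low: 20 of the 12229 genes with a mean of at least 1 FPKM were called (0.164%), and 727 had an unadjusted p under 0.05 (5.94%). Limma-voom called 29 of the 12229 (0.237%). In the second fit 16 of 16542 were called (0.0967%) and 980 had an unadjusted p under 0.05 (5.92%). In 0 of the 7 genes did the groups separate without overlap, against 11.3% of the genes tested in the first fit. Of the 6 members in that fit 4 lay above and 2 below 0, and their median log2 fold change was 0.08 against 0.003 over all genes. Without control replicate 2 only Slc10a4 stayed above 0, at 0.06. The others were then at -0.0008 for Chat, -0.27 for Slc18a3, -0.10 for Slc5a7, -0.12 for Ache and -0.03 for Isl1. In the fit with all 6 libraries and no block, the 95% intervals of these 6 genes reach from -0.48 to 0.63. Differences inside them, on the log2(FPKM + 1) scale, cannot be told from 0 in that fit with 3 libraries a group. With the replicate block the SEs of these genes were smaller, as for Slc10a4 (0.0843 against 0.166), and 0 members were called. Missing the threshold does not show that the groups are alike.

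**Figure D2:**
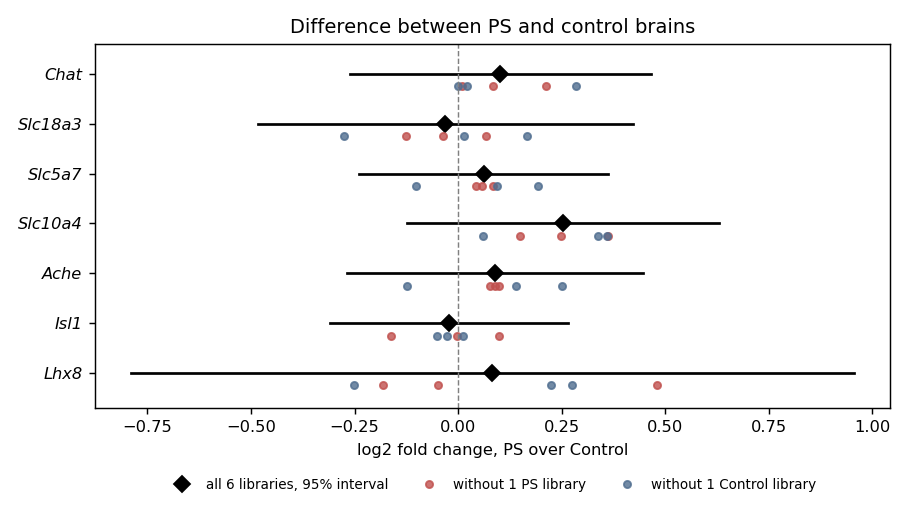
Log2 fold change, PS over control (x axis), of the 7 genes (y axis), on log2(FPKM + 1) and for Lhx8 on log2(FPKM + 0.1). Black diamonds with lines are the fits with all 6 libraries and their 95% intervals, and dots are fits without 1 PS (red) or 1 control (blue) library. Every interval crosses 0, and the dots lie on both sides of 0 for every gene but Slc10a4.

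The spread within groups was large for these genes. For Ache, 1.1% of the 2290 tested genes within 1.5-fold of its level had a within-group SD as large as its own or larger. The share was 1.3% for Slc18a3, 2.2% for Slc10a4, 3.6% for Chat, 7.4% for Slc5a7 and 16.4% for Isl1. Counting error was smaller than the spread in both groups for Chat, Slc18a3, Slc10a4 and Lhx8. The mean counting error was 6.6% for Chat against coefficients of variation of 20.2% in PS and 34.8% in control libraries, and 13.3% for Lhx8 against 47.7% in PS and 40.5% in control. In 1 group each, the spread of Slc5a7 and Isl1 was no larger than counting error: it was 3.8% for Slc5a7 in PS, against a counting error of 4.1%, and 8.5% for Isl1 in control, against 9.5%. The spread of Ache in PS was about as large as its counting error.

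Control replicate 2 was the lowest of the 6 libraries for 5 of the 7 members, namely Chat, Slc18a3, Slc5a7, Slc10a4 and Ache, against 30.0% of all tested genes. It held 45.9% of the mean of the other 2 controls for Slc18a3, 57.7% for Slc10a4, 62.0% for Slc5a7, 62.5% for Ache and 70.2% for Chat. Isl1 in that library stood at 98.0% and Lhx8 at 149% of the other 2 controls, so the transmitter genes and the forebrain factor Lhx8 parted there. The 12 hindbrain markers, mostly Hox genes, summed to 5.06 FPKM in control replicate 2, which is 28.8% of the mean of the other 5 libraries, and all 12 were lowest in it. Oligodendrocyte markers there were at 69.4% of the other 5 libraries and neuronal markers in general at 98.8%. The part of these in the low values was not tested.

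**Figure D3:**
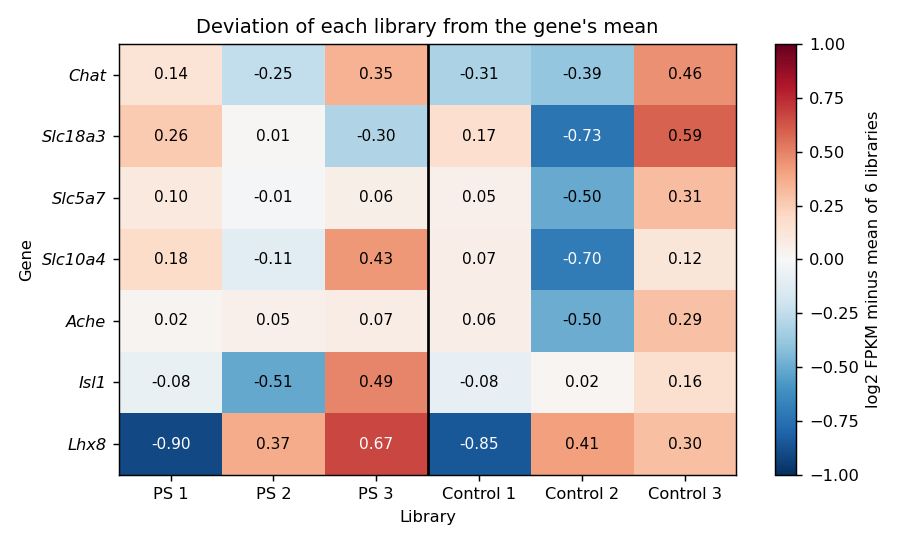
Log2 FPKM of each library minus the mean of the 6 libraries (colour scale and printed numbers) for the 7 genes (rows) in 3 PS and 3 control libraries (columns). Control replicate 2 is blue for 5 genes, down to -0.73 for Slc18a3, and Lhx8 is at -0.90 in PS replicate 1 and -0.85 in control replicate 1.

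Slc18a3 and Lhx8 were lowest in different libraries, and each was lowest in the libraries with the least RNA of a set of regional markers. The 2 libraries with the least Slc18a3, control replicate 2 and PS replicate 3, also had the smallest hindbrain sums, 11.03 FPKM in PS replicate 3 and 5.06 in control replicate 2. The other hindbrain sums were 18.4 and 18.6 in PS replicates 1 and 2 and 20.2 and 19.4 in control replicates 1 and 3. All 12 hindbrain markers had these same libraries as their 2 lowest. The 2 libraries with the least Lhx8, replicate 1 of each group, had the smallest sums of 12 striatal projection neuron markers, 407.5 FPKM in PS and 396 in control, where the other 4 libraries held 517.5 to 535.7. Of the 12 striatal markers, 10 had these as their 2 lowest libraries. These are 2 of the 7 members and 2 of 14 marker lists, and no other member had either pair as its 2 lowest libraries. Such matches were not particular to them. Slc10a4 and Slc5a7 were lowest in control replicate 2 and PS replicate 2, as were the monoamine (23.8 and 33.1) and arcuate (11.6 and 14.5) sums. Chat was lowest in control replicates 2 and 1, as was the oligodendrocyte sum (863 and 1155). General neuronal markers were also lowest in PS replicate 3 (2106) and control replicate 2 (2185). Chat was next lowest in control replicate 1 (1.65 FPKM), which had the largest hindbrain sum. Isl1 was lowest in PS replicate 2 (0.775 FPKM), which had the largest striatal sum. How much of the Slc18a3 or Lhx8 values the amount of a region in the sample accounts for was not tested.

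**Figure D4:**
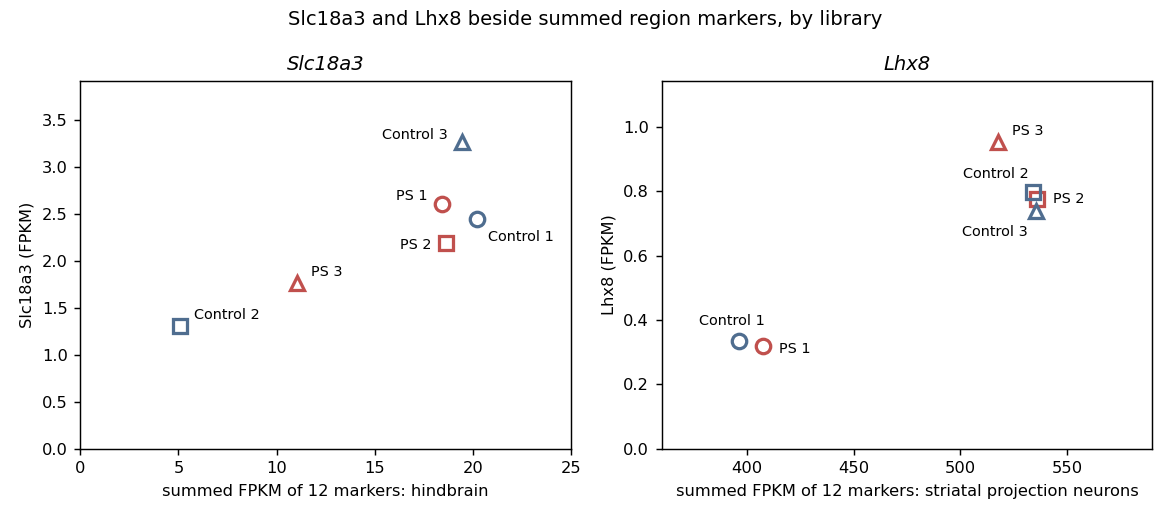
Slc18a3 (left) and Lhx8 (right) in FPKM (y axes, from 0) against the summed FPKM of 12 hindbrain markers and 12 striatal projection neuron markers (x axes; the right one does not start at 0) in each PS (red) and control (blue) library. Control replicate 2 and PS replicate 3 are lowest for Slc18a3 and the hindbrain sum, and replicate 1 of both groups is lowest for Lhx8 and the striatal sum.

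The genes most like each member across the 6 libraries were found by the root mean square difference of log2(FPKM + 1) deviations among 11747 genes. Such a search over so few libraries always returns close genes, and their closeness was not tested. For Slc18a3 they were Gbx2, a homeobox gene of the midbrain-hindbrain boundary and thalamus (0.087), Prph, the intermediate filament of motor and peripheral neurons (0.087), and Odf3b (0.091), against a deviation of its own of 0.283. For Ache they were Resp18 (0.028), Mtap (0.048) and Emc9 (0.050). For Slc5a7 they were Nap1l5, Nxph4 and B3galt5 (0.039 each). For Chat they were Tsr3 (0.063), Npepl1 (0.077) and Zdhhc4 (0.081), for Isl1 Trmt10c (0.063), Mbd6 (0.064) and Smim4 (0.067), and for Slc10a4 Drc7 (0.044), Bcas1 (0.056) and Tmem98 (0.067). Slc5a7 was the member closest to Ache, at rank 10 (0.060), whereas Slc18a3 was at rank 7806 for Chat (0.256) although the genes share a locus. Chat was at rank 2992 for Slc18a3. That distance exceeds the deviation of Chat itself, 0.224, so a gene with no variation over the libraries would rank closer to Chat.

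The ratio of Slc18a3 to Chat, per length, was 1.15, 1.27 and 0.673 in PS and 1.48, 0.834 and 1.16 in control replicates 1, 2 and 3. Its lowest values fell in PS replicate 3 and control replicate 2, the libraries with the least Slc18a3 and the least hindbrain marker RNA. The ratio contains Slc18a3, so its low values there are not a separate result. The ratio averaged 1.03 ± 0.315 in PS and 1.16 ± 0.323 in control (SD, n = 3 each; two-sided exact permutation p = 0.6, where 3 against 3 allows no p below 0.1). The ratio of Ache to Chat averaged 9.80 ± 2.06 in PS and 10.3 ± 2.24 in control (two-sided exact permutation p = 0.6, n = 3 each). Slc5a7 to Chat gave p = 0.7 and Lhx8 to Isl1 p = 0.9 by the same exact test. With 4 ratios tested and none near the smallest p allowed, none separated the groups.

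The other genes of acetylcholine signalling did not pass the test either. The 6 lists hold 65 genes listed in the tables, of which 32 were tested in the first fit and 21 more in the second, and 12 were too low for both. By limma 0 of the 53 were called, 0 had an unadjusted p under 0.05, and limma-voom called 0 of the 32 in the first fit. With 0.164% of all genes called by limma and 0.237% by limma-voom, a count of 0 among so few genes sets them apart in no way. These 32 had a median log2 fold change of 0.02.

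Of the 5 muscarinic receptors, G-protein-coupled receptors for acetylcholine, 4 were tested in the first fit, with log2 fold changes from -0.33 to 0.07. Chrm4, an inhibitory receptor prominent in striatum, was at 4.37, 6.55 and 4.65 FPKM in PS and 5.59, 8.55 and 6.30 in control replicates 1, 2 and 3. Within each replicate number the PS library was the lower one, while the groups overlapped (log2 fold change -0.33, SE 0.159, limma adjusted p = 0.844, and 0.103 with the replicate block). How often all 3 numbers agree over all genes is not given here, and the labels state no pairing. Without control replicate 2 its log2 fold change was -0.18, and without PS replicate 2 it was -0.49. Chrm1, the main excitatory cortical subtype, averaged 19.6 ± 2.14 FPKM in PS and 20.9 ± 5.23 in control (SD, n = 3 each). Chrm1 and Chrm3 stood highest in control replicate 2, the library where the presynaptic genes were lowest. Chrm2, often an autoreceptor on cholinergic terminals, averaged 5.64 ± 0.580 FPKM in PS and 5.78 ± 0.643 in control, and Chrm3 9.13 ± 0.770 in PS and 8.74 ± 1.52 in control (SD, n = 3 each).

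Of 15 nicotinic receptor subunits listed, which form ligand-gated ion channels, 3 were tested in the first fit and 8 in the second. Chrna4, which with Chrnb2 forms the main high-affinity brain receptor, was at 8.14, 7.535 and 7.68 FPKM in PS and 7.34, 6.41 and 7.05 in control replicates 1, 2 and 3. All 3 PS values lay above all 3 control values, and the same held for Chrnb2, at 14.5, 14.1 and 13.85 in PS and 12.9, 13.4 and 13.6 in control. Such a separation occurred in 11.3% of tested genes, and neither passed (log2 fold changes 0.15 and 0.08, limma adjusted p = 0.844 and 0.945). Chrna7, the subunit of homomeric receptors, averaged 5.63 ± 0.542 FPKM in PS and 5.57 ± 0.457 in control (SD, n = 3 each). Chrna3, a habenular and ganglionic subunit tested in the second fit, averaged 0.687 ± 0.0942 and 0.484 ± 0.246 FPKM in PS and control, lowest in control replicate 2 at 0.205. Its log2 fold change was 0.53, and 0.12 without that library.

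Among 10 chaperones and modulators of nicotinic receptors, 8 were tested in the first fit, with log2 fold changes from -0.03 to 0.07. Lynx1, a membrane-anchored protein that dampens these receptors, averaged 101 ± 1.88 FPKM in PS and 95.8 ± 6.24 in control. Tmem35a, a chaperone of receptor assembly, averaged 37.8 ± 2.94 and 38.5 ± 2.21, Ly6h 31.6 ± 3.43 and 30.7 ± 3.54, and Ly6e 38.1 ± 1.60 and 37.2 ± 1.02 in PS and control (SD, n = 3 each). Prima1, which anchors acetylcholinesterase to brain membranes, averaged 4.13 ± 0.307 FPKM in PS and 3.70 ± 0.544 in control (log2 fold change 0.13, limma adjusted p = 0.946), and its log2 fold change was 0.04 without control replicate 2. Bche, the second cholinesterase, averaged 1.26 ± 0.364 and 1.21 ± 0.195, and Colq, the collagen tail of the enzyme at muscle endplates, 0.406 ± 0.238 and 0.367 ± 0.140.

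Of 16 genes of choline uptake and phospholipid use, 12 were tested in the first fit, 6 with positive and 6 with negative log2 fold changes between -0.12 and 0.13. Slc44a1, a choline transporter of many cell types, averaged 16.7 ± 1.095 FPKM in PS and 15.2 ± 1.74 in control (limma adjusted p = 0.935). Chka, the kinase that commits choline to phospholipid, averaged 4.71 ± 0.118 and 5.23 ± 0.590 (limma adjusted p = 0.939), Flvcr1 2.74 ± 0.155 and 2.99 ± 0.317, and Pcyt1b, of the next step of that path, 10.5 ± 0.734 and 10.1 ± 0.211 in PS and control (SD, n = 3 each).

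**Figure D5:**
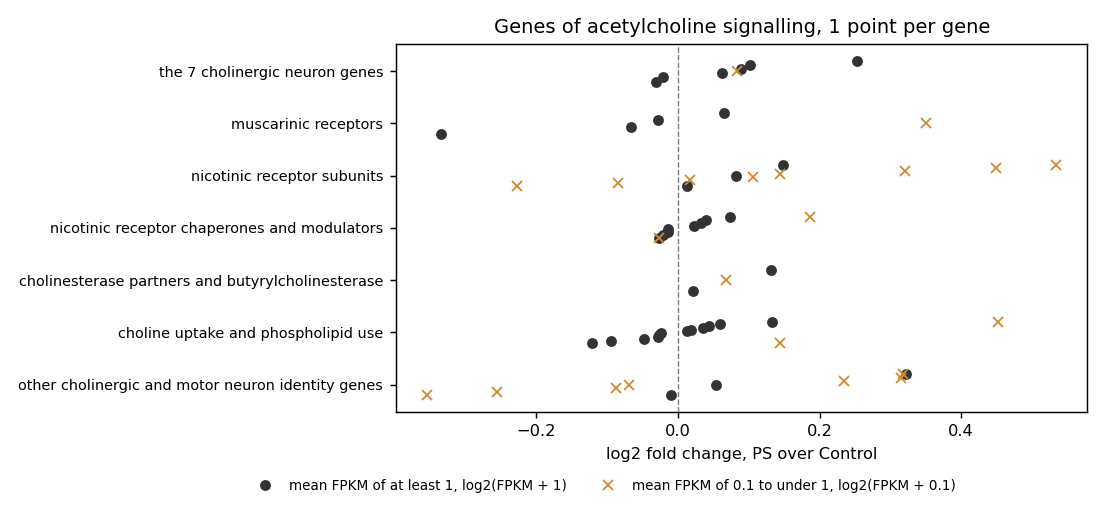
Log2 fold change, PS over control (x axis), of each gene in the 7 cholinergic neuron genes and in 6 lists of acetylcholine signalling (rows), 1 point per gene; dots are genes tested on log2(FPKM + 1) and crosses lower genes tested on log2(FPKM + 0.1). The dots lie between -0.33 and 0.32, and 0 of the points passed the adjusted threshold.

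Of 16 further genes of cholinergic and motor neuron identity, 3 were tested in the first fit and 7 in the second. Ngfr, the p75 neurotrophin receptor of basal forebrain cholinergic neurons, was at 1.65, 1.64 and 2.41 FPKM in PS and 0.835, 1.405 and 1.77 in control replicates 1, 2 and 3. In each replicate number the PS library was higher, and the groups overlapped (log2 fold change 0.32, SE 0.158, limma adjusted p = 0.854, and 0.339 with the replicate block). As for Chrm4, the share of all genes with such agreement is not given here. Only with sample weights was it called, at a log2 fold change of 0.62 (limma adjusted p = 0.0264). Prph averaged 2.54 ± 0.548 FPKM in PS and 2.72 ± 1.34 in control, and Gbx2 1.34 ± 0.333 and 1.28 ± 0.544 (SD, n = 3 each), both lowest in control replicate 2 and next lowest in PS replicate 3, as Slc18a3 was. Both genes came up above as most like Slc18a3, so this shared order is not a separate result. Mnx1, a defining transcription factor of spinal motor neurons, was listed at 0 in 3 of 6 libraries and reached 0.0346 FPKM.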

How the data were processed

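RNA was measured in 6 whole-brain libraries, 3 PS and 3 control, assigned to groups from their labels. Each library has its own table of FPKM values, deposited by the authors. The submitters' processing notes name fastp, HISAT2, HTSeq, R 3.2.0 and GRCm39, without roles or settings. Annotation here was GENCODE M21 and RefSeq GRCm38.p6, used for names, overlaps and promoters.

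The FPKM values moved in whole steps: 99.99% of 26556 genes gave whole reads in every library, within 0.02 reads, and these reads gave the depth. Replicates differed by more than sampling noise (chi-square per degree of freedom 8.03 to 29.31).

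PS and control were compared in genes averaging 1 FPKM or more, using limma 3.58.1 (R 4.3.3) on log2(FPKM + 1), with group only, a variance trend and Benjamini-Hochberg adjustment over all 12229 genes. Lower genes were read from a second fit (at least 0.1, log2(FPKM + 0.1)). The pipeline was tested on simulated data with the same dispersion for every gene, no outlying library and no pairing. That test does not show how the fits perform in these data. The 7 members and the gene lists were chosen with earlier results of these data known. The text names all members, the 4 genes of each acetylcholine list and the 2 of each marker list with the lowest unadjusted p, taking genes of the first fit before those of the second (marker genes only where a result turns on them), and the 3 genes most like each member of the first fit. One gene that this rule names is not reported here. Alternatives were other pseudocounts, filters, scalings, variance models, sample weights, limma-voom, the replicate block and each library left out. Libraries of the same number deviated together from their group means (correlations 0.181, 0.185 and 0.161, all over 0.1), which met the rule for a pairing. The reported fits and permutation tests leave the pairing out, and the fit with the block is an alternative. The pairing comes from the data, not the labels, and other matchings had a mean of at most 0.033. Blocked values stand where they bear on a result.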

Additional observations from a re-analysis of the deposited data

How the results depend on the processing

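For the 7 members, 112 values under alternatives were computed: 100 kept the sign of the main value, 12 turned it, and 0 passed the adjusted threshold. Other filters, no variance trend and the replicate block leave the log2 fold change itself unchanged, so the sign could not turn there. Every turn came from leaving out a library, except that of Isl1 with sample weights. Leaving out 1 library in turn gave log2 fold changes from -0.0008 to 0.29 for Chat, -0.27 to 0.17 for Slc18a3, -0.10 to 0.19 for Slc5a7, -0.12 to 0.25 for Ache, -0.16 to 0.10 for Isl1, -0.25 to 0.48 for Lhx8 and 0.06 to 0.36 for Slc10a4. With sample weights Isl1 turned to 0.0421, Lhx8 was at 0.62 (limma adjusted p = 0.360) and Chat at 0.24 (unadjusted p = 0.048, limma adjusted p = 0.191). The lowest unadjusted p of a member was 0.0136, for Slc10a4 with the replicate block. The 20 genes called over the whole table became 48 with the replicate block, 632 with sample weights, 9 with a mean of at least 5 FPKM, 1 with no filter, and 0 to 66 with a library left out. The acetylcholine lists had 0 calls except 1, Ngfr, with sample weights. The block changed no call of a member or of the acetylcholine lists, and brought calls to 4 of the 5 red cell genes. Without control replicate 2 the log2 fold changes of Slc44a1, Chka and Lynx1 were 0.06, -0.06 and 0.02, those of Chrm1 and Gbx2 turned to 0.12 and -0.16, and that of Prph was -0.34. A pseudocount of 1 for Lhx8, chosen after seeing the data, gave 0.05. The causes were not tested. Lhx8 had the fewest reads of the members, 32 to 95 a library.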

Other observations

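Pituitary hormones were on the list of other tissues because Isl1 is also made there. Gh, growth hormone, was listed at 0 in all 3 PS libraries and at 1.102, 0.471 and 2.89 FPKM in control replicates 1, 2 and 3 (second limma fit, unadjusted p = 5.75e-05, adjusted p = 0.0559). The 5 hormone genes together summed to 0.311 to 0.509 FPKM in PS and 0.675 to 3.195 in control libraries. Without Gh the other 4 summed to 0.311, 0.509 and 0.434 FPKM in PS and 0.623, 0.204 and 0.302 in control replicates 1, 2 and 3, which overlap. Of these, Prl, too low for both fits, was also listed at 0 in all 3 PS libraries. It was at 0.0844, 0.0854 and 0.1128 FPKM in control replicates 1, 2 and 3. Cga and Lhb averaged higher in PS (0.2035 and 0.211 FPKM) than in control (0.1195 and 0.162), and Tshb was near 0 throughout. Skeletal muscle markers summed to 15.1 FPKM in PS replicate 1 and to at most 5.15 in the other 5 libraries.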
